A study of Mus musculus with 32 samples.

Results

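Ankrd1, Ccn1, Ccn2, Axl, Amotl2, Lats2, Ajuba, Yap1, Wwtr1 and Tead1 are 10 genes of the YAP and TEAD pathway, chosen by symbol as genes known from that pathway, with earlier results of these data known. All 10 were listed among the 12053 genes measured in 1 mM glucose and among the 12791 genes measured in 10 mM glucose, and in no library was one of them at the lowest value of its table. They were measured by RNA sequencing in mouse embryonic fibroblasts, connective tissue cells kept in culture, in which Acly is knocked out. Acly encodes ATP-citrate lyase, the enzyme that makes acetyl-CoA from citrate outside the mitochondria. Nuc cells carried mCherry-tagged human ACLY with additional nuclear import sequences, Cyto cells the same tagged protein with a nuclear export sequence, and WT cells the tagged protein without either addition. KO cells carried mCherry, a red fluorescent protein, alone in the same vector. All 4 groups thus share the Acly knockout and the vector. The labels give neither the promoter that drives the construct nor whether a line is 1 clone. The cells were kept in DMEM with 10% CS, seeded at 500000 cells per 6 cm plate, left overnight and then held for 24 h in medium with either 1 mM or 10 mM glucose. There were 4 libraries of each construct in each medium, except 3 of Cyto in 10 mM glucose, because the Cyto library numbered 3 there was described by the submitters as an anomaly and was not analysed here. The 31 libraries of 32 therefore form 8 groups. All 1 mM libraries belong to batch 1 and all 10 mM libraries to batch 2, so medium and batch cannot be told apart and levels were compared only within a medium.

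YAP, encoded by Yap1, and TAZ, encoded by Wwtr1, are coactivators that cannot bind DNA themselves and act on genes through the TEAD transcription factors. The Hippo kinases LATS1 and LATS2 phosphorylate YAP and TAZ, which keeps them in the cytoplasm, and in fibroblasts the pathway is known to respond to cell density, attachment and mechanical tension. Ankrd1, Ccn1, Ccn2 and Axl are widely used as readouts of the pathway, while Amotl2 and Lats2 are targets whose proteins restrain YAP in turn, and Ajuba encodes a LIM protein that inhibits the LATS kinases.

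The TEAD factors recognise the bases CATTCC, or GGAATG on the other strand. The promoters were read for these letters because YAP and TAZ act on genes through TEAD. RefSeq promoters of build GRCm38.p6, each running from 250 bases before to 50 bases after a gene's start, were held for 8 of the 10 genes, in 10 promoters. For Ankrd1 and Ccn1, whose levels differed most between constructs in 10 mM glucose, the 250 bases before the start are given whole, from chr19:36119845-36120094 and chr3:145649986-145650235, both on the minus strand, with CATTCC or GGAATG in capitals.
Ankrd1: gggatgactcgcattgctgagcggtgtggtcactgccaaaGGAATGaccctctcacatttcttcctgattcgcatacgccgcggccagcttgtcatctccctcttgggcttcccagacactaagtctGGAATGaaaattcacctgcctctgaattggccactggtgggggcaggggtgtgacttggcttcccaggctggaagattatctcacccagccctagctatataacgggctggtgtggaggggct
Ccn1: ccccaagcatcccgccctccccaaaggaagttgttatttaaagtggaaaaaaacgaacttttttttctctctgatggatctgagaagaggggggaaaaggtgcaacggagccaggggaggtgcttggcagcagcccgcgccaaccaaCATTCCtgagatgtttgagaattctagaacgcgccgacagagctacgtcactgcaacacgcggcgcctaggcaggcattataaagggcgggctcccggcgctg
Ankrd1 held GGAATG with its first base at positions -210 and -123 from the start, and Ccn1 held CATTCC at position -103. In the other genes with a promoter in the table, the 10 bases on either side of the 6 letters are given, with the same capitals.
Axl: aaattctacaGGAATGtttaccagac
Amotl2: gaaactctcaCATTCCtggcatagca
Ajuba, first match: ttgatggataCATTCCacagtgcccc
Ajuba, second match: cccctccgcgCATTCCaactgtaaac
Lats2: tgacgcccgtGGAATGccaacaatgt
Yap1: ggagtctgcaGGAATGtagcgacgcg
Wwtr1: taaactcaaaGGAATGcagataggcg
These matches began at position -233 in Axl, -65 in Amotl2, -186 and -164 in Ajuba and -141 in Yap1. In Wwtr1, 2 overlapping promoters hold the same match, at -136 and -170 from their starts. In Lats2 the match lay at position 5 of 1 promoter, and the other Lats2 promoter had none. In all, 9 of the 10 promoters and 8 of the 8 genes held the motif on at least 1 strand. Of all 32851 promoters of the same length, 4817 held it, which is 14.7%, and 1.36% held it at least 2 times, as Ankrd1 and Ajuba did. By gene, 4481 of 27025 held it, which is 16.6%. The members were chosen as known from the pathway, and the difference from these shares was not tested. The AP-1 motif TGACTCA, or TGAGTCA on the other strand, was in 0 of these 10 promoters and in 5.20% of all promoters. No match of one motif could therefore overlap a match of the other. These counts describe letters in a short window, and the binding of a factor was not measured.

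As a check of the labels, Acly was at log2 levels of 8.87 to 9.05 in Nuc, 10.41 to 10.55 in Cyto, 10.43 to 10.68 in WT and 5.19 to 5.43 in KO libraries in 1 mM glucose. Acly in 10 mM glucose was at 8.98 to 9.24 in Nuc, 9.67 to 9.89 in Cyto, 10.14 to 10.28 in WT and 5.63 to 6.12 in KO libraries. KO libraries were thus the lowest of each medium, followed by Nuc libraries, without overlap. The construct is human ACLY and the reads were handled on the mouse build GRCm39, so which copy the Acly reads come from is not known. Nuc had less Acly RNA than Cyto, with log2 fold changes of -1.53 in 1 mM and -0.62 in 10 mM glucose. The part of this in other differences between Nuc and Cyto was not tested. All 10 fibroblast markers looked for, among them Col1a1, Pdgfra and Vim, were listed in both media. Their summed level in 1 mM glucose was 32834 to 37983 CPM in Nuc, 19057 to 22273 CPM in Cyto, 41372 to 44799 CPM in WT and 26568 to 31093 CPM in KO libraries. The sum in 10 mM glucose was 33264 to 36085 CPM in Nuc, 24175 to 26441 CPM in Cyto, 31334 to 31769 CPM in WT and 17637 to 19825 CPM in KO libraries. Col1a1 and Col1a2 make up most of this sum, and the single markers did not all follow it. In 1 mM glucose 3 higher and 4 lower were called in Nuc, 0 higher and 8 lower in Cyto and 3 higher and 4 lower in WT against KO, with Vim, Dcn, S100a4 and Pdgfrb lower in WT. Of all genes in 1 mM glucose, 60.0% were called in Nuc, 64.7% in Cyto and 58.2% in WT against KO. The marker counts in 10 mM glucose were 6 higher and 2 lower in Nuc, 5 higher and 0 lower in Cyto and 6 higher and 0 lower in WT. There, 45.3% of all genes were called in Nuc, 38.5% in Cyto and 40.8% in WT. None of 6 epithelial markers was listed, of 5 endothelial markers only Pecam1 in 10 mM glucose, and of 6 leukocyte markers only Cd68 and Csf1r, with summed levels of 1.04 to 9.26 CPM. Throughout, levels are the log2 values that the authors deposited, on a scale of log2 counts per 1000000 reads (CPM), which are not divided by gene length and so are not compared between genes. A gene was called where limma's Benjamini-Hochberg adjusted p was below 0.05 over all genes of the table, ± after a log2 fold change is its standard error, and n is 4 libraries per group unless the group is Cyto in 10 mM glucose, with 3. The depth of the libraries is unknown, and no label ties the libraries of 1 group to separate cultures, so p measures only the spread between them, which may be technical.

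The 10 genes did not move as 1 block: each construct had members above and members below KO. For Nuc against KO in 1 mM glucose 3 of 10 members were called (2 higher and 1 lower), where 60.0% of all genes were called, 30.5% higher and 29.5% lower. For Cyto against KO 3 were called (2 higher and 1 lower), where 64.7% of all genes were called, 31.7% higher and 33.0% lower, and for WT against KO 6 (5 higher and 1 lower), where 58.2% of all genes were called, 29.7% higher and 28.5% lower. Nuc against Cyto called 2 members, 1 in each direction, where 41.0% of all genes were called, 20.4% higher and 20.5% lower. Nuc against WT called 3 (1 higher and 2 lower), where 39.1% of all genes were called, 19.7% higher and 19.4% lower, and Cyto against WT called 4 (2 higher and 2 lower), where 53.2% of all genes were called, 25.7% higher and 27.5% lower. These counts in 1 mM glucose lay near or below the background of all genes. In 10 mM glucose the counts lay well above it in the 3 comparisons of Nuc. They lay closer to it in the other 3. The 3 comparisons of Nuc share the Nuc libraries, so their counts are not independent of each other. In 10 mM glucose, Nuc against KO called 8 of 10 members (3 higher and 5 lower), where 45.3% of all genes were called, 22.7% higher and 22.7% lower. Cyto against KO called 5 (4 higher and 1 lower), where 38.5% of all genes were called, 19.6% higher and 18.9% lower, and WT against KO called 6 (4 higher and 2 lower), where 40.8% of all genes were called, 20.6% higher and 20.2% lower. Nuc against Cyto called 7 members, of which 6 were lower in Nuc and 1 higher, where 31.0% of all genes were called, 15.3% higher and 15.7% lower. Nuc against WT called 6 (1 higher and 5 lower), where 28.8% of all genes were called, 15.0% higher and 13.8% lower, and Cyto against WT called 4 (3 higher and 1 lower), where 31.5% of all genes were called, 15.9% higher and 15.6% lower. Of the 120 log2 fold changes of members, 57 were called, and 42 of the 57 stayed called under every alternative processing that gave a value. The median log2 fold change of the 10 genes was -0.35 for Nuc against Cyto in 10 mM glucose and -0.05 in 1 mM glucose, where the medians of all genes were -0.000452 and 0.01. No test was made of these counts or medians, since the genes were chosen by hand with earlier results known.

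Ankrd1, which encodes a nuclear ankyrin repeat protein first known from heart muscle, separated the constructs more widely than any other member. Ankrd1 in 1 mM glucose stood at log2 levels of -2.09, -1.84, -1.66 and -1.82 in Nuc libraries, 3.75, 3.60, 3.57 and 3.66 in Cyto libraries, -0.17, 0.51, 0.37 and -0.15 in WT libraries and -2.36, -1.15, -2.27 and -2.16 in KO libraries. Ankrd1 in 10 mM glucose stood at log2 levels of -1.78, -1.93, -2.19 and -1.90 in Nuc libraries, 4.68, 4.58 and 4.60 in Cyto libraries, 0.90, 0.87, 1.08 and 1.46 in WT libraries and 0.21, 1.12, -0.61 and -0.19 in KO libraries. In both media every Cyto library lay above every other library and every WT library above every Nuc library. Nuc and KO libraries overlapped in 1 mM glucose, whereas in 10 mM glucose every Nuc library lay below every KO library and WT and KO libraries overlapped, KO being the most spread group. On the linear scale the mean in 1 mM glucose was 0.279 ± 0.0335 CPM in Nuc, 12.5 ± 0.698 CPM in Cyto, 1.13 ± 0.275 CPM in WT and 0.27 ± 0.122 CPM in KO (SD). Ankrd1 in 10 mM glucose averaged 0.26 ± 0.03 CPM in Nuc, 24.6 ± 0.937 CPM in Cyto, 2.14 ± 0.425 CPM in WT and 1.21 ± 0.672 CPM in KO.

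In Cyto against KO the log2 fold change of Ankrd1 was 5.63 ± 0.28 (adjusted p = 3.7e-11) in 1 mM glucose, a 49.5-fold difference, and 4.49 ± 0.35 (adjusted p = 5.54e-08) in 10 mM glucose, a 22.5-fold difference. By size this was the change with rank 5 among 12053 genes in 1 mM glucose and rank 6 among 12791 genes in 10 mM glucose. Nuc against Cyto gave -5.50 ± 0.28 (adjusted p = 1.76e-10) in 1 mM glucose, at rank 5, and -6.57 ± 0.35 (adjusted p = 1.17e-09) in 10 mM glucose, at rank 2. The gene thus stood among the most changed of each table wherever Cyto was compared with Nuc or KO. Cyto also lay above WT, by 3.51 ± 0.28 (adjusted p = 2.21e-08) in 1 mM and 3.54 ± 0.35 (adjusted p = 1.18e-06) in 10 mM glucose, and Nuc lay below WT, with -1.99 ± 0.28 (adjusted p = 2.96e-05) and -3.03 ± 0.32 (adjusted p = 3.03e-06) in the same media. Against KO, Nuc did not differ beyond the spread in 1 mM glucose (0.13 ± 0.28, adjusted p = 0.705), with a 95% interval of -0.46 to 0.72, and was lower in 10 mM glucose (log2 fold change -2.08 ± 0.32, adjusted p = 5.85e-05). WT was higher than KO by 2.13 ± 0.28 (adjusted p = 6.4e-06) in 1 mM and by 0.95 ± 0.32 (adjusted p = 0.0269) in 10 mM glucose. That last call ended when KO library 3 or 4 or WT library 3 or 4 was left out, with log2 fold changes of 0.70 to 0.95 and adjusted p of 0.0528 to 0.0927. It also ended with the 2 groups fitted alone, at 0.95 (adjusted p = 0.0724), and with all libraries numbered 4 left out, at 0.71 (adjusted p = 0.177). Most Ankrd1 levels in Nuc and KO lay below 1 CPM, where the size of a fold change depends on the offset of the log scale. With 1 CPM added to every value before the log2, Cyto against KO was 3.42 in 1 mM and 3.58 in 10 mM glucose, and Nuc against Cyto was -3.40 and -4.34. Nuc against WT became -0.73 and -1.31, and WT against KO became 0.74 and 0.54 in the same media. Nuc against KO in 10 mM glucose became -0.77. All these values stayed called, with adjusted p of at most 0.024. Ankrd1 is also a muscle gene, and of 10 muscle markers Des, Ttn and Tnnt2 were listed while Myod1, Myog and the other 5 were not. Their summed level in 1 mM glucose was 12.8 to 15.5 CPM in Nuc, 7.81 to 21.5 CPM in Cyto, 8.73 to 11.6 CPM in WT and 6.62 to 17.3 CPM in KO libraries. The same sum in 10 mM glucose was 34.6 to 40.4 CPM in Nuc, 45.3 to 65.4 CPM in Cyto, 13.7 to 17.0 CPM in WT and 23.4 to 26.9 CPM in KO libraries, so that Cyto was highest there, with Nuc next. In these bulk samples, fewer cells of a type and less RNA per cell cannot be told apart.

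**Figure D1:**
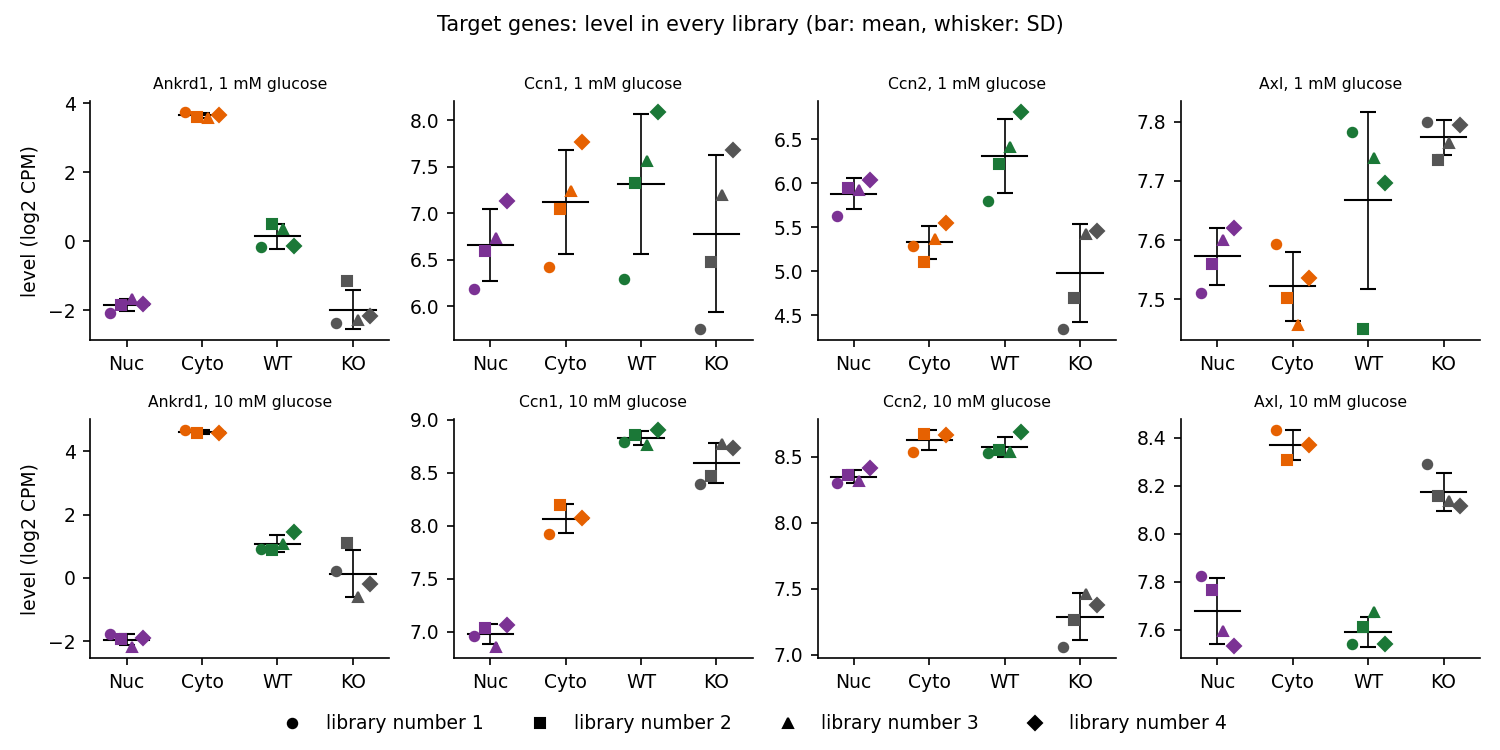
Log2 level (log2 CPM, vertical axis) of Ankrd1, Ccn1, Ccn2 and Axl in every library of the Nuc, Cyto, WT and KO groups, in 1 mM glucose (upper row) and 10 mM glucose (lower row), with the marker shape giving the library number, a bar the mean and a whisker the SD. Ankrd1 in Cyto stands apart from all other groups in both media, and Ccn1 in 1 mM glucose varies more within a construct than between constructs.

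Ccn1 encodes CYR61, a secreted protein of the extracellular matrix that binds integrins. In 10 mM glucose Nuc, Cyto and the pair of WT and KO stood apart. In 1 mM glucose all constructs overlapped. Ccn1 in 10 mM glucose stood at log2 levels of 6.96, 7.03, 6.86 and 7.07 in Nuc libraries, 7.92, 8.20 and 8.07 in Cyto libraries, 8.78, 8.85, 8.76 and 8.90 in WT libraries and 8.39, 8.47, 8.77 and 8.73 in KO libraries. All 4 Nuc libraries lay below all 3 Cyto libraries, and these lay below every WT and KO library. Nuc was lower than KO by a log2 fold change of -1.61 ± 0.09 (adjusted p = 3.78e-10), lower than Cyto (log2 fold change -1.08 ± 0.09, adjusted p = 2.1e-07) and lower than WT (log2 fold change -1.84 ± 0.09, adjusted p = 2.34e-10). Cyto was lower than KO (log2 fold change -0.53 ± 0.09, adjusted p = 0.000261) and lower than WT (log2 fold change -0.76 ± 0.09, adjusted p = 1.09e-05). Cyto thus had less Ccn1 and more Ankrd1 than KO in the same libraries. WT was called higher than KO, by 0.23 ± 0.09 (adjusted p = 0.0368). This call ended on quantile normalization, at 0.15 (adjusted p = 0.191), and without KO library 1 or 2 or WT library 1, 2 or 4, with log2 fold changes of 0.17 to 0.25 and adjusted p of 0.0533 to 0.123.

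Ccn1 in 1 mM glucose stood at log2 levels of 6.19, 6.59, 6.73 and 7.13 in Nuc libraries, 6.43, 7.05, 7.24 and 7.77 in Cyto libraries, 6.29, 7.33, 7.56 and 8.09 in WT libraries and 5.76, 6.48, 7.20 and 7.68 in KO libraries. The groups overlapped. In each construct the library numbered 1 was the lowest and the library numbered 4 the highest. Against KO, the log2 fold change was -0.12 ± 0.40 (adjusted p = 0.817) in Nuc and 0.34 ± 0.40 (adjusted p = 0.464) in Cyto. In WT it was 0.54 ± 0.40 (adjusted p = 0.257). None of these was called in this fit, which leaves the replicate number out. The 95% intervals ran over -0.96 to 0.72, -0.50 to 1.18 and -0.30 to 1.38 for Nuc, Cyto and WT. With all libraries numbered 1 left out, Nuc was called lower than WT, at -0.84 (adjusted p = 0.0455). With the replicate number in the fit as a block, Ccn1 was called higher than in KO in WT, at 0.54 (adjusted p = 0.00399). The block also called it in Cyto against KO, at 0.34 (adjusted p = 0.0398), and not in Nuc against KO. Nuc was called lower than WT (adjusted p = 0.00196) and Cyto (adjusted p = 0.0152) with the block.

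Ccn2 encodes CTGF, a secreted matrix protein of the same family as CCN1 and a common marker of fibroblast activation. It was called higher than in KO with each ACLY construct in both media, except for Cyto in 1 mM glucose. Ccn2 in 10 mM glucose stood at log2 levels of 8.31, 8.36, 8.32 and 8.42 in Nuc libraries, 8.54, 8.68 and 8.67 in Cyto libraries, 8.53, 8.55, 8.54 and 8.69 in WT libraries and 7.06, 7.27, 7.46 and 7.38 in KO libraries. No KO library reached the level of any other library. The log2 fold change against KO was 1.06 ± 0.07 (adjusted p = 9.72e-09) in Nuc, 1.34 ± 0.08 (adjusted p = 3.45e-09) in Cyto and 1.29 ± 0.07 (adjusted p = 1.58e-09) in WT, which are 2.09-fold, 2.53-fold and 2.44-fold differences. Nuc was slightly lower than Cyto (-0.28 ± 0.08, adjusted p = 0.0147) and than WT (-0.23 ± 0.07, adjusted p = 0.0307). The call against Cyto ended without Cyto library 2 or 4, with log2 fold changes of -0.26 to -0.25 and adjusted p of 0.0568 to 0.0611, and the call against WT ended without any 1 of Nuc libraries 1, 2 and 3 and WT libraries 2 and 4, with log2 fold changes of -0.24 to -0.19 and adjusted p of 0.0521 to 0.0961.

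Ccn2 in 1 mM glucose stood at log2 levels of 5.63, 5.95, 5.93 and 6.04 in Nuc libraries, 5.29, 5.11, 5.37 and 5.55 in Cyto libraries, 5.80, 6.23, 6.41 and 6.81 in WT libraries and 4.34, 4.70, 5.43 and 5.46 in KO libraries. WT was highest on average, Nuc next, then Cyto and KO, and only Nuc and Cyto among these neighbours did not overlap. Against KO, Ccn2 was higher in Nuc by 0.90 ± 0.23 (adjusted p = 0.0026) and in WT by 1.33 ± 0.23 (adjusted p = 9.85e-05). In Cyto the difference from KO had a 95% interval of -0.13 to 0.83 and was not called, and Cyto was lower than WT (log2 fold change -0.98 ± 0.23, adjusted p = 0.00156). In the fit of all 4 groups Nuc was called neither against Cyto nor against WT, with 95% intervals of 0.07 to 1.03 and -0.91 to 0.05. Without WT library 1 the difference between Nuc and WT was called, at -0.60 (adjusted p = 0.0485). Nuc against Cyto was called with the length trend described below removed, at 0.57 (adjusted p = 0.0447). It was also called with all libraries numbered 1 left out, at 0.63 (adjusted p = 0.0291), and with the 2 groups fitted alone, at 0.55 (adjusted p = 0.00113). Relative to KO, the Cyto value of Ccn2 differed between media (log2 fold change -0.99 ± 0.27, adjusted p = 0.00325), as 1 mM minus 10 mM glucose.

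Axl encodes a receptor tyrosine kinase for the ligand GAS6. Axl in 10 mM glucose stood at log2 levels of 7.82, 7.77, 7.60 and 7.53 in Nuc libraries, 8.43, 8.31 and 8.37 in Cyto libraries, 7.54, 7.61, 7.67 and 7.54 in WT libraries and 8.29, 8.16, 8.14 and 8.12 in KO libraries. Cyto and KO libraries formed a high pair and Nuc and WT libraries a low pair, with no overlap between the pairs. Nuc was lower than KO (log2 fold change -0.49 ± 0.07, adjusted p = 1.62e-05) and lower than Cyto (log2 fold change -0.69 ± 0.07, adjusted p = 2.33e-06). WT was lower than KO (log2 fold change -0.58 ± 0.07, adjusted p = 4.11e-06), and Cyto was higher than WT by 0.78 ± 0.07 (adjusted p = 6.83e-07). Cyto was also called higher than KO, by 0.20 ± 0.07 (adjusted p = 0.0426), with 7 of 16 alternatives keeping the call. It ended on quantile normalization, at 0.10 (adjusted p = 0.291), and without KO library 2, 3 or 4 or any 1 Cyto library, with log2 fold changes of 0.17 to 0.23 and adjusted p of 0.0504 to 0.15.

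Axl in 1 mM glucose stood at log2 levels of 7.51, 7.56, 7.60 and 7.62 in Nuc libraries, 7.59, 7.50, 7.46 and 7.54 in Cyto libraries, 7.78, 7.45, 7.74 and 7.70 in WT libraries and 7.80, 7.74, 7.76 and 7.79 in KO libraries. All Nuc and Cyto libraries lay below all KO libraries, while WT overlapped every other group. Nuc was lower than KO (log2 fold change -0.20 ± 0.06, adjusted p = 0.012) and Cyto was lower than KO (log2 fold change -0.25 ± 0.06, adjusted p = 0.00234). Cyto thus lay below KO in 1 mM and above it in 10 mM glucose, and the difference between the media was -0.45 ± 0.10 (adjusted p = 0.000344). The call in Nuc ended with all libraries numbered 1 left out, at -0.17 (adjusted p = 0.0702). The WT library numbered 2 in 1 mM glucose was the lowest of its group, and without it Axl was called lower than WT both in Nuc, at -0.17 (adjusted p = 0.0044), and in Cyto, at -0.22 (adjusted p = 0.000321).

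Amotl2 encodes an angiomotin-like scaffold that binds YAP and is itself a YAP target. Amotl2 in 10 mM glucose stood at log2 levels of 7.44, 7.67, 7.37 and 7.19 in Nuc libraries, 7.78, 7.94 and 7.79 in Cyto libraries, 8.15, 8.02, 7.90 and 7.92 in WT libraries and 7.86, 7.89, 7.88 and 7.92 in KO libraries. Every Nuc library lay below every other library. No pair among Cyto, WT and KO was called. Nuc was lower than KO (log2 fold change -0.47 ± 0.08, adjusted p = 0.000226), lower than Cyto (log2 fold change -0.42 ± 0.09, adjusted p = 0.00209) and lower than WT (log2 fold change -0.58 ± 0.08, adjusted p = 6.91e-05). Amotl2 in 1 mM glucose stood at log2 levels of 7.82, 7.90, 7.86 and 7.93 in Nuc libraries, 7.90, 7.98, 7.94 and 7.92 in Cyto libraries, 8.01, 7.79, 8.13 and 8.0 in WT libraries and 7.76, 7.84, 7.82 and 7.80 in KO libraries. There the groups overlapped at each step of their order, and only WT was called against KO, higher by 0.18 ± 0.06 (adjusted p = 0.0189). That call ended on quantile normalization, at 0.05 (adjusted p = 0.538), and without KO library 1 or WT library 3, with log2 fold changes of 0.13 to 0.16 and adjusted p of 0.0518 to 0.0732. Without WT library 2, Amotl2 was called lower than WT both in Nuc, at -0.17 (adjusted p = 0.00385), and in Cyto, at -0.11 (adjusted p = 0.0298). The fold change of Nuc against KO differed between media by 0.54 ± 0.10 (adjusted p = 0.000126), as 1 mM minus 10 mM glucose.

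Ajuba, the LATS inhibitor, was highest in WT in 1 mM glucose and lowest in Nuc in 10 mM glucose. Ajuba in 1 mM glucose stood at log2 levels of 5.62, 5.64, 5.63 and 5.70 in Nuc libraries, 5.72, 5.75, 5.67 and 5.66 in Cyto libraries, 5.94, 6.01, 5.96 and 5.99 in WT libraries and 5.63, 5.69, 5.59 and 5.58 in KO libraries. All 4 WT libraries lay above every other library. The other groups overlapped. WT was higher than KO by 0.35 ± 0.05 (adjusted p = 1.8e-05), Cyto was lower than WT (log2 fold change -0.28 ± 0.05, adjusted p = 0.000222) and Nuc was lower than WT (log2 fold change -0.33 ± 0.05, adjusted p = 8.34e-05). Ajuba in 10 mM glucose stood at log2 levels of 5.03, 4.96, 5.31 and 5.41 in Nuc libraries, 5.88, 5.67 and 5.72 in Cyto libraries, 5.49, 5.39, 5.50 and 5.61 in WT libraries and 5.37, 5.54, 5.50 and 5.61 in KO libraries. Cyto lay above every other group there without overlap, while Nuc overlapped WT and KO through library 4 alone. Nuc was lower than Cyto (log2 fold change -0.58 ± 0.11, adjusted p = 0.000647), lower than KO (log2 fold change -0.33 ± 0.10, adjusted p = 0.0132) and lower than WT (log2 fold change -0.32 ± 0.10, adjusted p = 0.0231). Nuc libraries 1 and 2 lay below libraries 3 and 4. Without Nuc library 2 the call against KO ended, at -0.26 (adjusted p = 0.0513), and the call against WT ended without Nuc library 1 or 2 or WT library 4, with log2 fold changes of -0.28 to -0.25 and adjusted p of 0.0702 to 0.0832.

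Yap1 itself had its highest mean in Nuc libraries in both media. Yap1 in 10 mM glucose stood at log2 levels of 7.66, 7.75, 7.63 and 7.63 in Nuc libraries, 7.48, 7.44 and 7.36 in Cyto libraries, 7.29, 7.21, 7.29 and 7.15 in WT libraries and 7.48, 7.49, 7.39 and 7.42 in KO libraries. All 4 Nuc libraries lay above all other libraries. All 4 WT libraries lay below all other libraries. Nuc was higher than KO by 0.22 ± 0.05 (adjusted p = 0.00351), higher than Cyto by 0.24 ± 0.06 (adjusted p = 0.00499) and higher than WT by 0.43 ± 0.05 (adjusted p = 1.73e-05). WT was lower than KO (log2 fold change -0.21 ± 0.05, adjusted p = 0.00479). Cyto was higher than WT by 0.19 ± 0.06 (adjusted p = 0.0194), a call that ended without Cyto library 1 or 2 or WT library 4, with log2 fold changes of 0.16 to 0.19 and adjusted p of 0.0592 to 0.0834. Yap1 in 1 mM glucose stood at log2 levels of 7.53, 7.52, 7.52 and 7.50 in Nuc libraries, 7.30, 7.35, 7.38 and 7.37 in Cyto libraries, 7.41, 7.18, 7.38 and 7.34 in WT libraries and 7.56, 7.45, 7.47 and 7.42 in KO libraries. Nuc lay above Cyto and WT without overlap, by 0.17 ± 0.05 (adjusted p = 0.0187) and 0.19 ± 0.05 (adjusted p = 0.0103), and overlapped KO. WT was lower than KO (log2 fold change -0.15 ± 0.05, adjusted p = 0.0281). The call of Nuc against Cyto ended with all libraries numbered 1 left out, at 0.15 (adjusted p = 0.0806), that of Nuc against WT when these 2 groups were fitted alone, at 0.19 (adjusted p = 0.0549), and that of WT against KO without KO library 1 or 3, with log2 fold changes of -0.15 to -0.12 and adjusted p of 0.0505 to 0.0926. The call of WT against KO was kept in 12 of 17 alternatives. It also ended with the 2 groups fitted alone, at -0.15 (adjusted p = 0.11), and with all libraries numbered 1 left out, at -0.15 (adjusted p = 0.0641). Removing the length trend described below ended it too, at -0.08 (adjusted p = 0.0711). Cyto against KO was not called in the fit of all 4 groups, at -0.13 ± 0.05 (adjusted p = 0.0505). It was called lower in 6 of 17 alternatives, at -0.23 (adjusted p = 0.00062) on quantile normalization and -0.14 (adjusted p = 0.0446) without KO library 4. The largest called difference of Yap1 was the 0.43 of Nuc against WT in 10 mM glucose.

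Wwtr1, which encodes TAZ, was higher with every ACLY construct than in KO. Wwtr1 in 1 mM glucose stood at log2 levels of 7.73, 7.78, 7.74 and 7.69 in Nuc libraries, 7.72, 7.86, 7.86 and 7.78 in Cyto libraries, 7.78, 7.58, 7.88 and 7.73 in WT libraries and 7.28, 7.29, 7.15 and 7.14 in KO libraries. Every KO library lay below all other libraries, and the other 3 groups overlapped each other. The log2 fold change against KO was 0.51 ± 0.06 (adjusted p = 2.3e-06) in Nuc, 0.59 ± 0.06 (adjusted p = 3.7e-07) in Cyto and 0.53 ± 0.06 (adjusted p = 2.3e-06) in WT. Wwtr1 in 10 mM glucose stood at log2 levels of 7.04, 7.07, 7.07 and 6.99 in Nuc libraries, 6.96, 6.94 and 7.01 in Cyto libraries, 6.94, 6.87, 6.88 and 6.87 in WT libraries and 6.85, 6.77, 6.62 and 6.59 in KO libraries. KO was again lowest, without overlap. The log2 fold change against KO was 0.34 ± 0.06 (adjusted p = 0.000295) in Nuc, 0.26 ± 0.07 (adjusted p = 0.00459) in Cyto and 0.18 ± 0.06 (adjusted p = 0.0247) in WT. The call in WT ended without KO library 3 or 4 or WT library 1, with log2 fold changes of 0.14 to 0.17 and adjusted p of 0.0699 to 0.0801. Among Nuc, Cyto and WT, no pair was called in either medium, except Nuc above WT in 10 mM glucose with the length trend described below removed, at 0.14 (adjusted p = 0.0301).

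**Figure D2:**
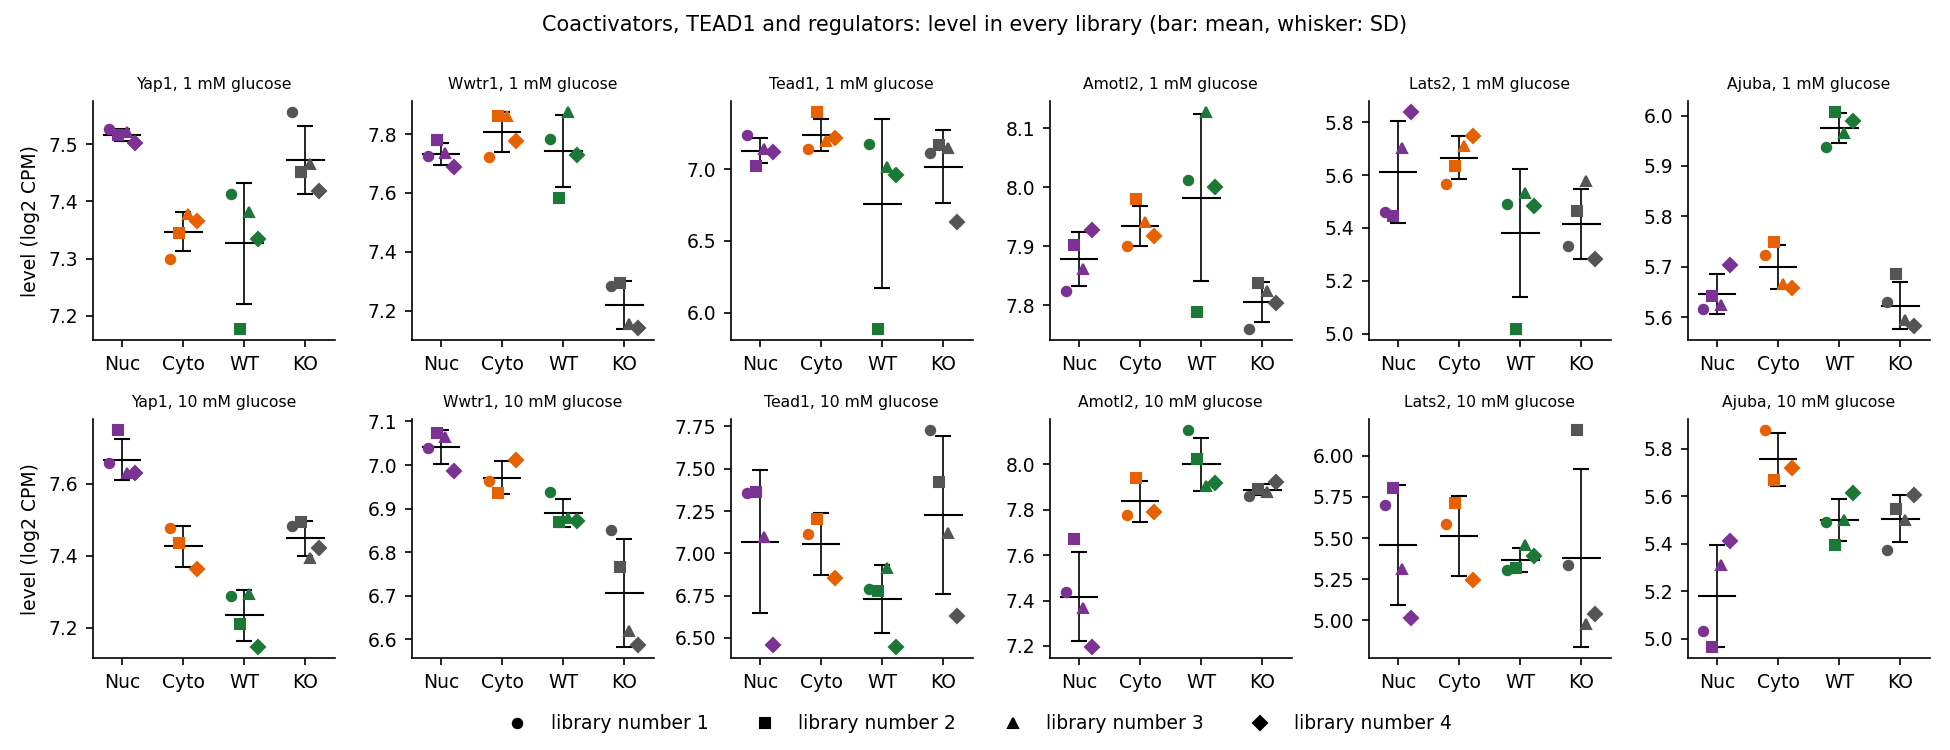
Log2 level (log2 CPM, vertical axis) of Yap1, Wwtr1, Tead1, Amotl2, Lats2 and Ajuba in every library of the Nuc, Cyto, WT and KO groups, in 1 mM glucose (upper row) and 10 mM glucose (lower row), with the marker shape giving the library number, a bar the mean and a whisker the SD. Wwtr1 is lowest in KO in both media, Yap1 is highest in Nuc in 10 mM glucose, and Tead1 has single libraries far below their group.

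In some constructs, Tead1 and Lats2 differed more between libraries than the construct means did from each other. Tead1 encodes a TEAD factor, the DNA-binding partner of YAP and TAZ. Tead1 in 1 mM glucose stood at log2 levels of 7.24, 7.02, 7.14 and 7.12 in Nuc libraries, 7.14, 7.40, 7.19 and 7.21 in Cyto libraries, 7.17, 5.88, 7.02 and 6.96 in WT libraries and 7.11, 7.17, 7.14 and 6.63 in KO libraries. There, WT library 2 and KO library 4 were far below their groups. Tead1 in 10 mM glucose stood at log2 levels of 7.36, 7.36, 7.10 and 6.46 in Nuc libraries, 7.11, 7.20 and 6.85 in Cyto libraries, 6.79, 6.78, 6.91 and 6.44 in WT libraries and 7.73, 7.42, 7.12 and 6.63 in KO libraries. There, library 4 was the lowest of each construct. In the fit of all 4 groups without a block no comparison called Tead1, and its log2 fold changes over the 12 comparisons lay between -0.49 and 0.48. The longest annotated Tead1 transcript has 9964 bases, the longest of the 10 genes. Over the 10% of genes with the longest transcripts, the median deviation from the construct's mean was -0.44 in WT library 2 and -0.12 in KO library 4 of 1 mM glucose. The values were -0.28, -0.05, -0.14 and -0.19 in the libraries numbered 4 of Nuc, Cyto, WT and KO in 10 mM glucose. The other libraries lay between -0.09 and 0.18, and its part in the Tead1 values was looked at only by taking the transcript-length trend out of each library. With that trend removed, Tead1 was called lower in WT than in KO in 10 mM glucose, at -0.38 (adjusted p = 0.032), and higher in Cyto than in KO and in WT in 1 mM glucose, at 0.29 (adjusted p = 0.0348) and 0.35 (adjusted p = 0.0162). WT against KO in 10 mM glucose was also called without KO library 4, at -0.69 (adjusted p = 0.00965), and Nuc against WT there without Nuc library 4, at 0.54 (adjusted p = 0.0393). With all libraries numbered 4 left out, these 2 comparisons were called at -0.60 (adjusted p = 0.00211) and 0.44 (adjusted p = 0.0173). With the replicate number in the fit as a block, they were called at -0.49 (adjusted p = 0.00379) and 0.34 (adjusted p = 0.0421). Cyto against WT in 1 mM glucose was called without WT library 1 or 3, with log2 fold changes of 0.56 to 0.61 and adjusted p of 0.0201 to 0.0394.

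**Figure D3:**
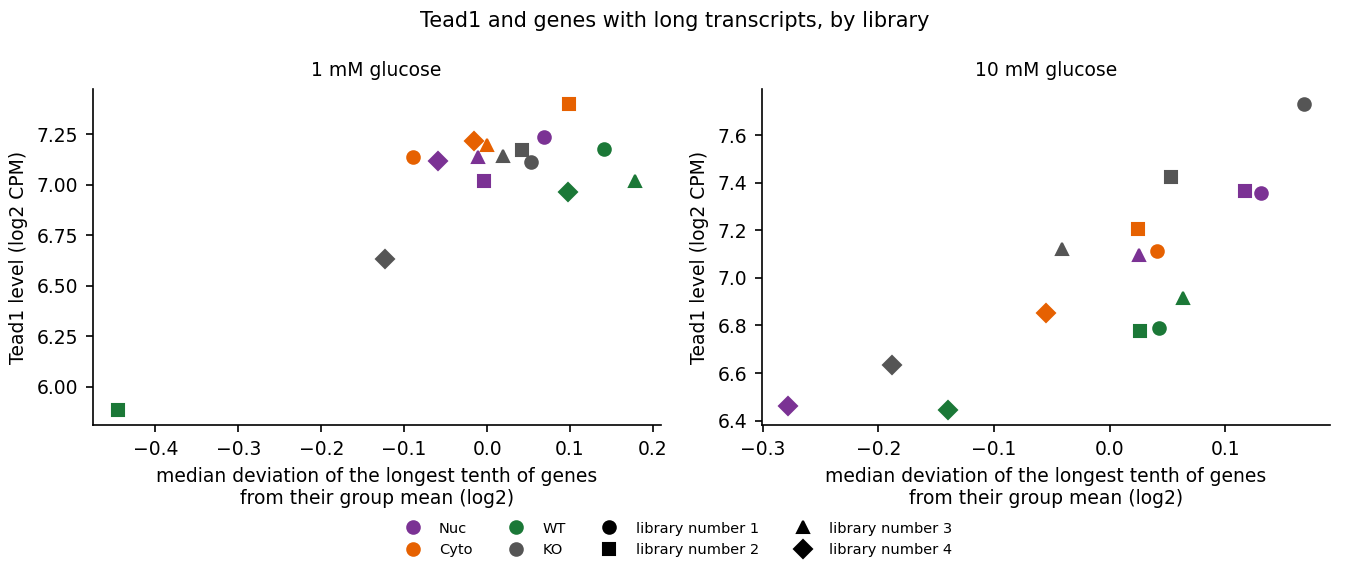
Tead1 level (log2 CPM, vertical axis) of each library against the median deviation of the 10% of genes with the longest transcripts from their construct's mean (log2, horizontal axis), in 1 mM glucose (left) and 10 mM glucose (right), with colour giving the construct and shape the library number. WT library 2 in 1 mM glucose, at -0.44, and the libraries numbered 4 in 10 mM glucose, at -0.05 to -0.28, lie at the left and hold the lowest Tead1 values of their constructs.

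Lats2 encodes a kinase that phosphorylates YAP and is a YAP target itself. Lats2 in 1 mM glucose stood at log2 levels of 5.46, 5.45, 5.70 and 5.84 in Nuc libraries, 5.57, 5.64, 5.71 and 5.75 in Cyto libraries, 5.49, 5.02, 5.53 and 5.48 in WT libraries and 5.33, 5.46, 5.58 and 5.28 in KO libraries. Lats2 in 10 mM glucose stood at log2 levels of 5.70, 5.80, 5.31 and 5.02 in Nuc libraries, 5.58, 5.71 and 5.24 in Cyto libraries, 5.30, 5.32, 5.46 and 5.39 in WT libraries and 5.34, 6.16, 4.98 and 5.04 in KO libraries. The groups overlapped at each step of their order in both media. The 1 call was Cyto above WT in 1 mM glucose, by 0.29 ± 0.11 (adjusted p = 0.0445). It was kept in 8 of 17 alternatives. It ended without WT library 2, the lowest of its group, at 0.16 (adjusted p = 0.139), and without Cyto library 2, 3 or 4, with log2 fold changes of 0.26 to 0.30 and adjusted p of 0.0678 to 0.104. It also ended on median centring, at 0.25 (adjusted p = 0.0676), on quantile normalization, at 0.23 (adjusted p = 0.0958), and with the 2 groups fitted alone, at 0.29 (adjusted p = 0.0737). Without KO library 3, Cyto was called above KO, at 0.31 (adjusted p = 0.0401).

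**Figure D4:**
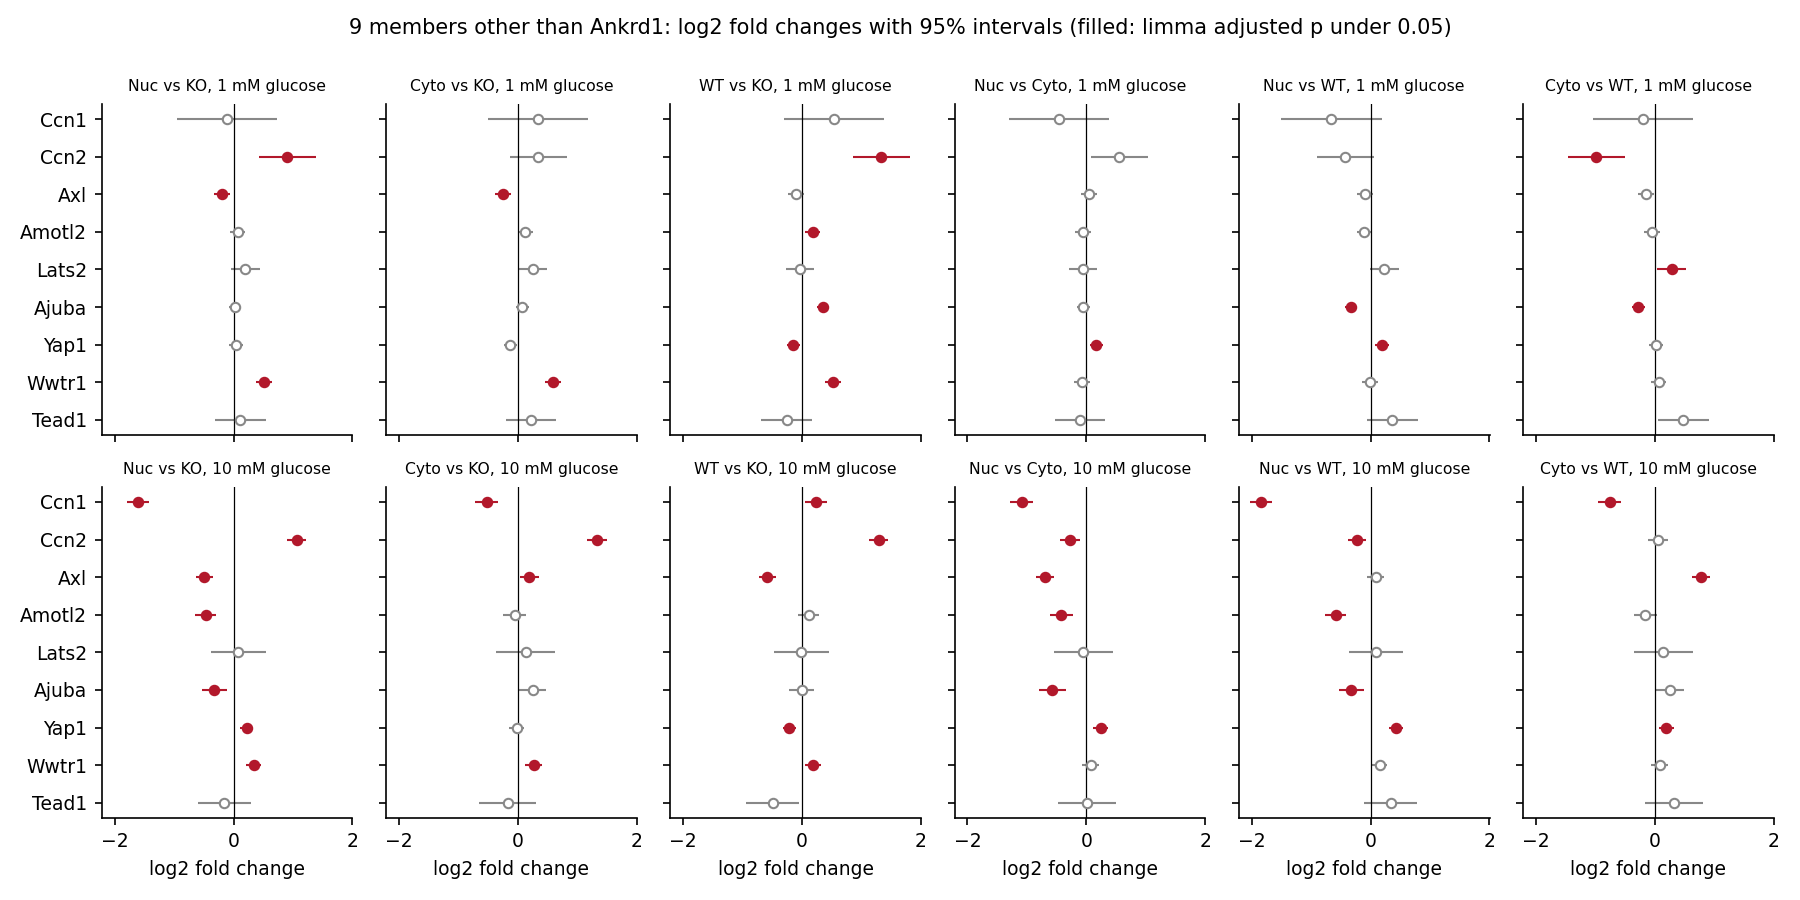
Log2 fold changes (horizontal axis) with 95% intervals of the 9 members other than Ankrd1 in the 6 comparisons of each medium, 1 mM glucose in the upper row and 10 mM glucose in the lower row, with filled symbols for limma adjusted p below 0.05. Ccn2 and Wwtr1 lie to the right of 0 in each comparison of an ACLY construct with KO, while Ccn1 and Axl change side between constructs or media.

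A dependence of the construct differences on the medium was tested with limma on the 11931 genes that both tables list, by subtracting the log2 fold change of 10 mM glucose from that of 1 mM glucose. For Nuc against KO 5 of the 10 members were called, all 5 positive, where 36.5% of all genes were called, 17.8% positive and 18.7% negative in this difference. For Cyto against KO 4 were called, with 2 positive and 2 negative, where 44.7% of all genes were called, 21.5% positive and 23.2% negative. For WT against KO 4 were called, all positive, where 26.2% of all genes were called, 13.5% positive and 12.7% negative, and for Nuc against Cyto 4, all positive, where 19.0% of all genes were called, 9.47% positive and 9.48% negative. Since the 3 comparisons with KO share the KO libraries, these counts are not independent of each other. In Nuc against KO the members were Ankrd1 (2.21 ± 0.42), Ccn1 (1.49 ± 0.44), Amotl2 (0.54 ± 0.10), Ajuba (0.35 ± 0.11) and Axl (0.29 ± 0.09), all of which were lower in Nuc than in KO in 10 mM glucose. With 1 CPM added before the log2, the Ankrd1 value was 0.78 (adjusted p = 0.00307). Medium and batch cannot be told apart here, and a batch effect drops out only where it is equal in all constructs.

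Of 16 other genes from a hand-written signature of YAP targets, 14 were measured, and they split between rising and falling in every comparison. Against KO in 1 mM glucose the counts were 2 higher and 6 lower in Nuc, 3 higher and 7 lower in Cyto and 3 higher and 4 lower in WT. The shares of all genes called were 60.0% in Nuc, 64.7% in Cyto and 58.2% in WT, so that the list lay near or below them. Its medians were -0.11 in Nuc, -0.29 in Cyto and -0.01 in WT. The counts in 10 mM glucose were 5 higher and 4 lower in Nuc, 4 higher and 3 lower in Cyto and 4 higher and 4 lower in WT. In that medium 45.3% of all genes were called in Nuc, 38.5% in Cyto and 40.8% in WT. The medians of the list were -0.14 in Nuc, 0.02 in Cyto and 0.03 in WT. Nuc against Cyto gave 4 higher and 4 lower in 1 mM and 3 higher and 7 lower in 10 mM glucose, with median log2 fold changes of 0.21 and -0.40. In this comparison 41.0% of all genes were called in 1 mM glucose, 20.4% higher and 20.5% lower. In 10 mM glucose it was 31.0%, with 15.3% higher and 15.7% lower. Nt5e, which encodes the ectonucleotidase CD73, was higher in Cyto than in KO by 2.13 ± 0.16 (adjusted p = 4.98e-09) in 1 mM and 1.20 ± 0.31 (adjusted p = 0.00607) in 10 mM glucose. In Nuc against Cyto Nt5e was lower, with log2 fold changes of -3.26 ± 0.16 in 1 mM and -1.42 ± 0.31 in 10 mM glucose. Gadd45a, a stress-induced gene of growth arrest, was higher than in KO in all 3 constructs, with the largest values in Cyto, 1.78 ± 0.12 in 1 mM and 1.40 ± 0.13 in 10 mM glucose. F3, which encodes tissue factor, rose most in WT against KO, by 1.30 ± 0.07 in 1 mM and 0.90 ± 0.06 in 10 mM glucose, and was higher in Cyto by 1.03 ± 0.07 and 0.47 ± 0.07. In Nuc against KO, F3 was called in 1 mM glucose (0.41 ± 0.07) and not in 10 mM glucose, where its value was 0.01 ± 0.06.

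Of 14 Hippo kinases and adaptors, most that were called in 1 mM glucose were higher than in KO. The counts there were 7 higher and 2 lower in Nuc, 9 higher and 3 lower in Cyto and 3 higher and 2 lower in WT, with medians of 0.15, 0.33 and 0.03 where the medians of all genes were -0.00608, -0.0258 and -0.00214. Of all genes, 30.5% higher and 29.5% lower in Nuc, 31.7% higher and 33.0% lower in Cyto and 29.7% higher and 28.5% lower in WT were called. The share of the list called higher thus lay above that of all genes in Nuc and Cyto and below it in WT. Counts for this list in 10 mM glucose were 3 higher and 1 lower in Nuc, 2 higher and 2 lower in Cyto and 2 higher and 2 lower in WT. Of all genes in that medium, 22.7% higher and 22.7% lower in Nuc, 19.6% higher and 18.9% lower in Cyto and 20.6% higher and 20.2% lower in WT were called. Nf2, which encodes the upstream Hippo activator merlin, was higher than in KO in 1 mM glucose by 0.84 ± 0.09 in Nuc, 1.11 ± 0.09 in Cyto and 0.42 ± 0.09 in WT, and was called in no comparison in 10 mM glucose. Frmd6, a FERM-domain gene that acts with Nf2, was lower, with log2 fold changes of -0.51 ± 0.11 in Nuc, -1.09 ± 0.11 in Cyto and -0.80 ± 0.11 in WT in the same medium. Stk3, the kinase MST2 that activates LATS, was higher in Cyto than in KO in both media, by 0.40 ± 0.05 in 1 mM and 0.26 ± 0.08 in 10 mM glucose.

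Among 7 genes of YAP-binding proteins and LATS inhibitors, 1 higher and 2 lower were called in Nuc, 2 higher and 2 lower in Cyto and 3 higher and 4 lower in WT against KO in 1 mM glucose. Over all genes the shares called were 60.0% in Nuc, 64.7% in Cyto and 58.2% in WT. The medians of the 7 genes were 0.03 in Nuc, -0.02 in Cyto and -0.39 in WT. Counts for this list in 10 mM glucose were 1 higher and 2 lower in Nuc, 3 higher and 0 lower in Cyto and 1 higher and 4 lower in WT. The shares over all genes were 45.3% in Nuc, 38.5% in Cyto and 40.8% in WT. The 7 genes had medians of 0.04 in Nuc, 0.07 in Cyto and -0.37 in WT. Amot, which encodes the YAP-binding scaffold angiomotin, had the largest changes and was lower than in KO, with log2 fold changes of -1.44 ± 0.18 in Nuc, -1.35 ± 0.18 in Cyto and -1.55 ± 0.18 in WT in 1 mM glucose. Amot in 10 mM glucose was lower, with log2 fold changes of -0.75 ± 0.13 in Nuc and -0.85 ± 0.13 in WT, and the value in Cyto, -0.32 ± 0.14, was not called. Wtip, a LIM gene of the Ajuba family, was higher than in KO in Nuc and Cyto in both media, by 0.60 ± 0.08 and 0.42 ± 0.08 in 1 mM and 0.50 ± 0.09 and 0.48 ± 0.10 in 10 mM glucose. Dlg5, a scaffold gene, was lower in Nuc than in Cyto in both media, with log2 fold changes of -0.34 ± 0.06 in 1 mM and -0.67 ± 0.09 in 10 mM glucose.

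Of 5 other TEAD and VGLL genes, Tead4 was higher in Nuc than in Cyto in both media, by 1.14 ± 0.14 (adjusted p = 6.97e-06) in 1 mM and 0.99 ± 0.20 (adjusted p = 0.00122) in 10 mM glucose. Vgll4, which encodes a cofactor that competes with YAP for TEAD, was also higher in Nuc than in Cyto, by 0.62 ± 0.10 and 0.73 ± 0.08 in the same media. Vgll3, another TEAD cofactor, was higher than in KO in all 3 constructs in 1 mM glucose, by 0.70 ± 0.08 in Nuc, 0.43 ± 0.08 in Cyto and 0.68 ± 0.08 in WT. The counts for the 5 genes against KO in 1 mM glucose were 2 higher and 1 lower in Nuc, 1 higher and 1 lower in Cyto and 2 higher and 1 lower in WT. Of all genes, 60.0% in Nuc, 64.7% in Cyto and 58.2% in WT were called, and the list lay near or below them. The counts in 10 mM glucose were 2 higher and 0 lower in Nuc, 2 higher and 1 lower in Cyto and 3 higher and 0 lower in WT. Of all genes there, 45.3% in Nuc, 38.5% in Cyto and 40.8% in WT were called.

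**Figure D5:**
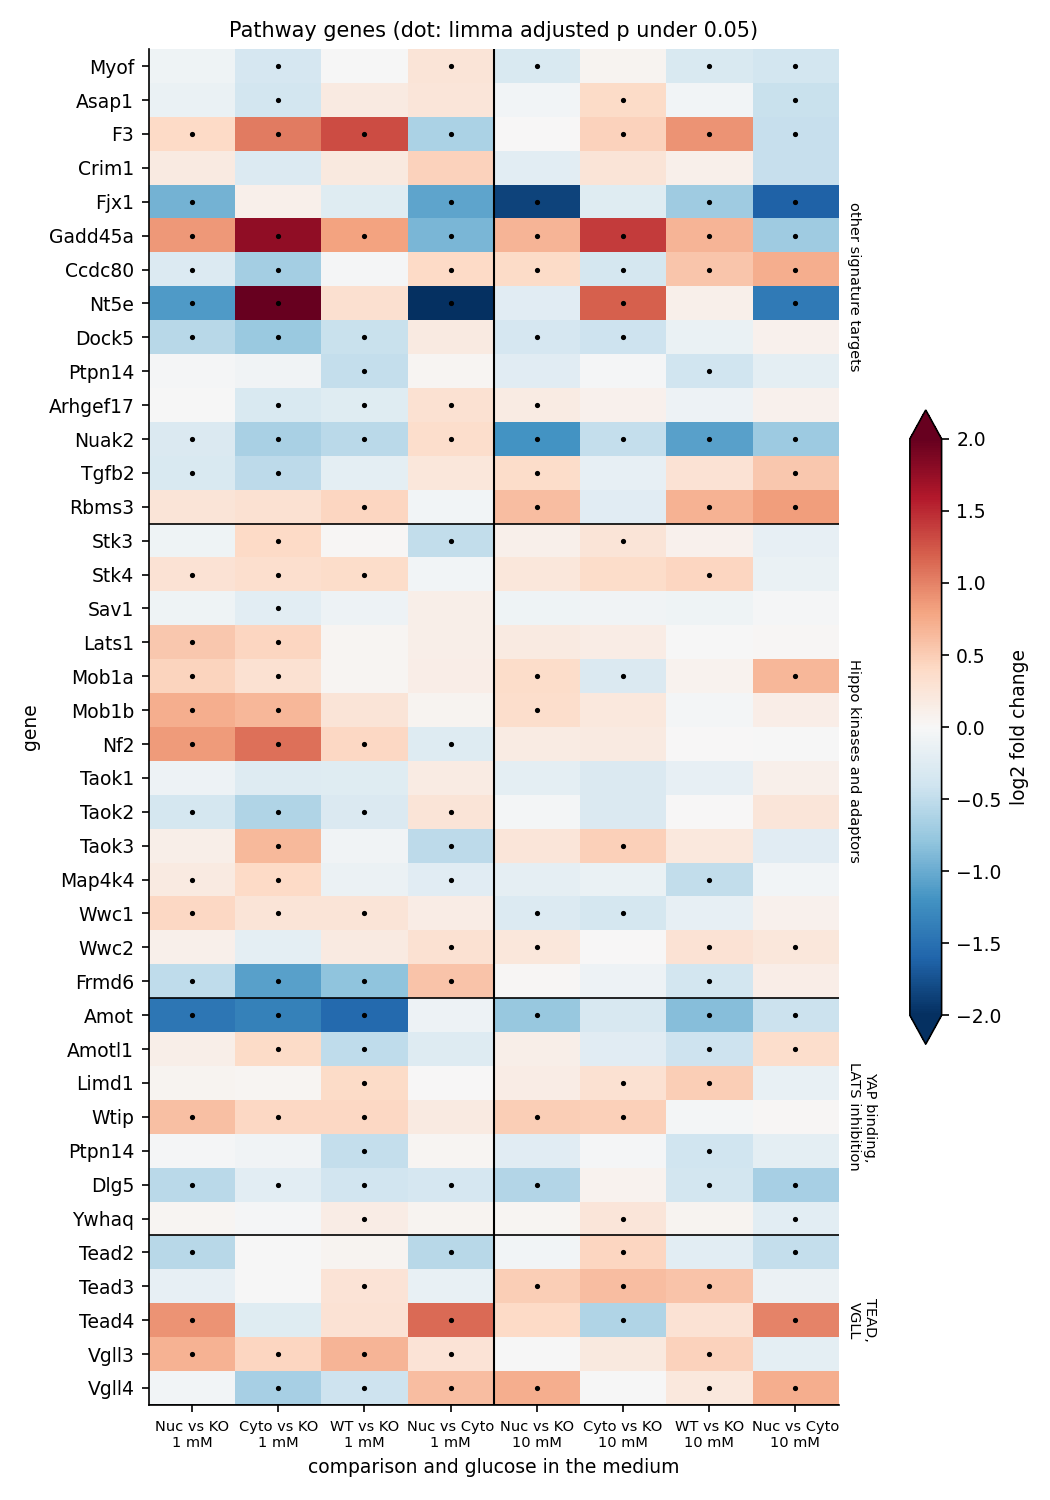
Log2 fold changes (colour, cut at 2 and -2) of the other pathway genes (rows, in 4 lists) in Nuc, Cyto and WT against KO and in Nuc against Cyto, in 1 mM glucose (left) and 10 mM glucose (right), with a dot where limma's adjusted p was below 0.05. Every list holds genes of both colours, Nt5e and Gadd45a are highest in Cyto against KO, and Amot is lower than in KO in all 3 constructs in 1 mM glucose.

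MRTF and SRF, a coactivator and a transcription factor that respond to actin, share some targets with YAP, and 13 of 14 genes listed as their targets were measured. Against KO in 1 mM glucose the counts were 6 higher and 4 lower in Nuc, 1 higher and 7 lower in Cyto and 5 higher and 5 lower in WT. Called shares of all genes were 60.0% in Nuc, 64.7% in Cyto and 58.2% in WT. The list had medians of -0.11 in Nuc, -0.26 in Cyto and 0.14 in WT. The counts in 10 mM glucose were 8 higher and 3 lower in Nuc, 8 higher and 1 lower in Cyto and 6 higher and 3 lower in WT. Here the called shares of all genes were 45.3% in Nuc, 38.5% in Cyto and 40.8% in WT. The list had medians of 0.44 in Nuc, 0.45 in Cyto and 0.14 in WT in this medium. Tagln, the actin-binding protein transgelin, went the opposite way to Ankrd1 between Nuc and Cyto, with 3.94 ± 0.15 in 1 mM and 1.85 ± 0.14 in 10 mM glucose. Actg2, a smooth muscle actin, was higher than in KO in all 3 constructs in both media, with 2.76 ± 0.15 in Cyto in 1 mM glucose the largest of these. Vcl, which encodes the focal adhesion protein vinculin, was lower than in KO in all 3 constructs in both media, with log2 fold changes of -1.42 ± 0.12 in Nuc, -1.56 ± 0.12 in Cyto and -0.71 ± 0.12 in WT in 1 mM glucose.

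The genes whose levels followed Ankrd1 most closely were ranked by Pearson's r over the 31 libraries, after each gene was centred within its table, among 11621 genes with a mean log2 value of at least 0 in both tables. Genes with provisional symbols, such as those ending in Rik, were passed over. The 5 highest of the others were Fbln1 (r = 0.937), a matrix glycoprotein, Maoa (r = 0.892), the enzyme monoamine oxidase A, Rai14 (r = 0.890), an actin-associated protein, Vps4b (r = 0.882), an ATPase of membrane sorting, and Grk2 (r = 0.876), a kinase of receptor signalling. These libraries share a construct in groups of 3 or 4, so r mostly follows the 8 group means and is given with no p. Fbln1 had a mean log2 level of 7.25 in Nuc, 8.02 in Cyto, 7.55 in WT and 7.33 in KO libraries in 1 mM glucose. Fbln1 in 10 mM glucose had 6.99 in Nuc, 7.76 in Cyto, 7.24 in WT and 7.09 in KO libraries. The order of the constructs was thus Cyto, WT, KO and Nuc in both media, over a far narrower range than that of Ankrd1. The other 9 members followed Ankrd1 less closely. Ajuba had r = 0.564, Amotl2 0.449, Ccn1 0.359, Wwtr1 0.352, Axl 0.257, Lats2 0.224, Ccn2 0.123 and Tead1 0.052. Yap1 ran the other way, with r = -0.543, as the gene highest in Nuc and low in WT.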

How the data were processed

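RNA was sequenced from 31 analysed libraries of 8 groups. The authors deposited 1 table per medium with normalized log2 values per gene, on the scale of log2 CPM, since the linear values of a library sum to 0.933 to 1.10 times 1000000. Reads were handled with kallisto, edgeR and limma on GRCm39, per the submitters' processing notes, with no version or filter given in the sources used here. The lowest value, shared by all libraries of a table, was -3.592 for 1 mM and -3.293 for 10 mM glucose. The depth is unknown. The 1 entry per table without a symbol was left out.

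Constructs were compared within a table with limma 3.58.1 in R 4.3.3, on group means of all 4 constructs with an intensity trend, Benjamini-Hochberg adjustment over the table and an adjusted p below 0.05. The code of the fit was tested on simulated data. Differences between media used the 11931 shared genes. The alternatives were a prior variance without trend, median centring, quantile normalization, an offset of 1 on the linear values, a filter at a mean log2 value of 0, a block for the replicate number, separate fits for each pair of groups, and leave-one-out fits. Removing the trend on transcript length (spline with 5 degrees of freedom, lengths from a GRCm38 annotation for 97.6% and 97.0% of genes in 1 mM and 10 mM glucose), and dropping the libraries numbered 4 of 10 mM glucose, or those numbered 1 of 1 mM glucose, together, were alternatives chosen after seeing the data. Promoters came from RefSeq, GRCm38.p6, and motifs were searched on both strands.

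The 10 genes and the gene lists were chosen with earlier results of these data known. Besides the 10 genes, up to 3 genes per list with the smallest adjusted p, the 5 genes most like Ankrd1 (provisional symbols passed over) and Acly were named. Promoters of Ccn2 and Tead1 were not analysed here.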

Additional observations from a re-analysis of the deposited data

Results flagged for a closer look

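Of 70 groups of 4 libraries checked, 1 per member, construct and medium, 6 held a library far from the other 3 by Dixon's ratio, and chance gives about 1 in 20. In 1 mM glucose these were Ankrd1 in KO library 2, at a log2 level of -1.15 where the others were at -2.36 to -2.16, Lats2 in WT library 2, at 5.02 against 5.48 to 5.53, Tead1 in WT library 2, at 5.88 against 6.96 to 7.17, and Tead1 in KO library 4, at 6.63 against 7.11 to 7.17. In 10 mM glucose they were Ccn2 in WT library 4, at 8.69 against 8.53 to 8.55, and Wwtr1 in WT library 1, at 6.94 against 6.87 to 6.88. The WT library 2 of 1 mM glucose was thus singled out for 2 members, and it is also the library with the lowest values over genes with long transcripts.

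Of 40 differences of a member's log2 fold change between media, 17 were called by limma, each as 1 mM minus 10 mM glucose. For Nuc against KO they were Ankrd1 at 2.21 ± 0.42 (adjusted p = 0.000114), Ccn1 at 1.49 ± 0.44 (adjusted p = 0.00874), Amotl2 at 0.54 ± 0.10 (adjusted p = 0.000126), Axl at 0.29 ± 0.09 (adjusted p = 0.0126) and Ajuba at 0.35 ± 0.11 (adjusted p = 0.0112). For Cyto against KO they were Ankrd1 at 1.14 ± 0.43 (adjusted p = 0.0332), Ccn2 at -0.99 ± 0.27 (adjusted p = 0.00325), Axl at -0.45 ± 0.10 (adjusted p = 0.000344) and Wwtr1 at 0.32 ± 0.09 (adjusted p = 0.00345). For WT against KO they were Ankrd1 at 1.18 ± 0.42 (adjusted p = 0.0361), Axl at 0.48 ± 0.09 (adjusted p = 0.000255), Wwtr1 at 0.34 ± 0.08 (adjusted p = 0.003) and Ajuba at 0.36 ± 0.11 (adjusted p = 0.0137). For Nuc against Cyto they were Ccn2 at 0.83 ± 0.27 (adjusted p = 0.0271), Amotl2 at 0.36 ± 0.11 (adjusted p = 0.0163), Axl at 0.74 ± 0.10 (adjusted p = 1.15e-06) and Ajuba at 0.52 ± 0.11 (adjusted p = 0.000993). The call of Ankrd1 in WT against KO ended in 13 of 25 alternatives and that in Cyto against KO in 11 of 24. Leaving out 1 library ended the WT call with log2 fold changes of 0.85 to 1.18 and adjusted p of 0.0516 to 0.1, for KO libraries 1, 3 and 4 and WT libraries 2 and 3 of 1 mM glucose and KO libraries 1 and 2 and WT libraries 1, 2 and 3 of 10 mM glucose. It ended the Cyto call with log2 fold changes of 0.81 to 1.17 and adjusted p of 0.052 to 0.0953, for Cyto library 1 and KO libraries 1, 3 and 4 of 1 mM glucose and KO library 2 and each Cyto library of 10 mM glucose. The Ccn2 call of Nuc against Cyto ended without Nuc library 4 or Cyto library 2 of 1 mM glucose or Cyto library 2 or 4 of 10 mM glucose, with log2 fold changes of 0.76 to 0.81 and adjusted p of 0.0542 to 0.0599. The Amotl2 call of Nuc against Cyto ended without Cyto library 2 of 10 mM glucose, at 0.31 (adjusted p = 0.0625). Medium and batch cannot be told apart.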

How the results depend on the processing

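The number of all genes called stayed within 1.5 times its value in every comparison and under every alternative, and of the 57 member calls 42 held under all alternatives that gave a value. Of the 63 uncalled member values, 23 were called under at least 1. The number of members called moved by more than 1.5 times as follows. Cyto against KO in 1 mM glucose had 3 members called, against 7 with the length trend removed and 6 with the 2 groups fitted alone. Nuc against Cyto in 1 mM glucose had 2, against 1 with a minimum mean log2 level of 0, which leaves out Ankrd1. Leaving out 1 library gave 3 to 5 members for Nuc against WT in 1 mM glucose, where 3 were called, with 5 without WT library 2, and 2 to 4 for the difference between media of Nuc against Cyto, where 4 were called, with 2 without Cyto library 2 of 10 mM glucose. With 1 added on the linear scale, the difference between media of Ankrd1 in Cyto against KO was -0.16 (adjusted p = 0.574 by limma), against 1.14, and that in WT against KO was 0.20 (adjusted p = 0.504), since levels below 1 CPM are then compressed. Uncalled values of Ccn1 changed sign on leaving out 1 library: they ran from -0.46 to 0.18 for Nuc against KO and from -0.54 to 0.061 for Cyto against WT in 1 mM glucose, and from -0.037 to 0.64 for the difference between media of WT against KO. Whether same-numbered libraries are paired is not known. The correlation of their deviations ran from -0.21 to 0.16 in 1 mM glucose, with 5 of 24 over 0.1. In 10 mM glucose it ran from -0.03 to 0.40, with 5 of 21 over 0.1. Of the libraries, 4 of 16 in 1 mM and 10 of 15 in 10 mM glucose correlated best with their own number. The reported fits leave the replicate number out unless a block is named. With the replicate number as a block, 6 members were called for Cyto against KO, 4 for Nuc against Cyto and 5 for Nuc against WT in 1 mM glucose. The block called Ccn1 in 1 mM glucose for WT against KO, at 0.54 (adjusted p = 0.00399), Cyto against KO, at 0.34 (adjusted p = 0.0398), Nuc against WT, at -0.66 (adjusted p = 0.00196), and Nuc against Cyto, at -0.46 (adjusted p = 0.0152). It called Ccn2 there for Nuc against Cyto, at 0.55 (adjusted p = 0.0075), Cyto against KO, at 0.35 (adjusted p = 0.0484), and Nuc against WT, at -0.43 (adjusted p = 0.031). Lats2 was called there for Cyto against KO, at 0.25 (adjusted p = 0.0454). In 10 mM glucose the block called Tead1, as given above, and Ajuba for Cyto against KO, at 0.26 (adjusted p = 0.04775), and Cyto against WT, at 0.27 (adjusted p = 0.0499). Among the differences between media, it called Ccn1 for Cyto against KO, at 0.87 (adjusted p = 0.000305), and for Nuc against Cyto, at 0.62 (adjusted p = 0.0134). Yap1 was called among them for Nuc against KO, at -0.175 (adjusted p = 0.048). Putting the Cyto library 3 of 10 mM glucose back was not run. The unknown depth leaves the counting error of low levels, such as Ankrd1 in Nuc, unmeasured.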
